A study of Mus musculus with 13 samples.

Results

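The study asked how metformin in the drinking water and inhaled particulate matter act together on alveolar macrophages, the resident phagocytes of the air spaces. The values described here are the metformin by particulate matter interaction: for each gene, the effect of particulate matter in animals on metformin minus its effect in animals on vehicle. All 13 libraries of the series entered a single model of 4 groups, and 11906 of the 43430 genes in the count table passed the filter on low counts. The groups, all of male C57Bl/6 mice aged 10 weeks, were metformin with particulate matter (PM; 3 libraries), metformin with phosphate-buffered saline (PBS; 3 libraries), vehicle with PM (3 libraries) and vehicle with PBS (4 libraries). Metformin, a biguanide drug for type 2 diabetes, was given at 100 mg/kg/day in the drinking water from 24 h before the instillation. Every animal was instilled into the trachea, with 10 µg of a standardized PM from NIST or with PBS, and the cells were sorted by flow cytometry from the lung 24 h later. So the vehicle PBS animals had the instillation too, and no group was left uninstilled. Polyadenylated RNA of these cells was sequenced, and a library is called here by its group and its title number.

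Alveolar macrophages take up inhaled particles and answer with cytokines, antioxidant enzymes and fast-acting transcription factors. Metformin acts on mitochondrial respiratory complex I and, through the energy balance of the cell, on the kinase AMPK. Under additivity on the log2 scale, the change with both treatments is the sum of the changes with each alone. A positive interaction means that the level with both lay above that given by this sum and a negative one that it lay below.

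Counts assigned to genes totalled 6514625 to 8100538 per library in the metformin PM group and 6169508 to 6434350 in the metformin PBS group. They totalled 6181613 to 7107452 in the vehicle PM group and 5567481 to 6362497 in the vehicle PBS group. Between replicates of a group, log2 CPM over genes correlated at 0.9873 to 0.9924, and no pair agreed within sampling noise. The submitters call the replicates biological, and the labels name no batch. Siglecf, the defining surface lectin of alveolar macrophages, was at 477 to 608 CPM (the count scaled to a common library total, corrected by the trimmed mean of M values) in all libraries, and the 34 tested markers of this cell type summed to 42461 to 48900 CPM. Members moved within that sum. By the edgeR test given below, PM raised 12 of the 34 with metformin (7.18% of all genes tested) and lowered 7 (5.60%). With vehicle, PM raised 8 (2.60%) and lowered 7 (2.26%). Scaled by library total alone, Marco was at 413 to 532 CPM in metformin PM and 137 to 196 CPM in metformin PBS libraries. It was at 431 to 707 CPM in vehicle PM and 263 to 432 CPM in vehicle PBS libraries. The 12 tested monocyte markers summed to 3317 to 3744 CPM in metformin PM, 2897 to 3428 CPM in metformin PBS, 3263 to 4358 CPM in vehicle PM and 2463 to 2865 CPM in vehicle PBS libraries. The 6 tested neutrophil markers summed to 178 to 187 CPM in metformin PM, 123 to 135 CPM in metformin PBS, 169 to 190 CPM in vehicle PM and 131 to 150 CPM in vehicle PBS libraries, so both PM groups were above both PBS groups in this sum. Of the neutrophil genes, S100a8, scaled by library total alone, was at 4.56 to 5.37 CPM in metformin PM and 3.73 to 5.02 CPM in metformin PBS libraries. It was at 2.81 to 4.29 CPM in vehicle PM and 2.33 to 5.5 CPM in vehicle PBS libraries. The members did not all move as their sum: against vehicle PBS, 2 of the 6 were higher and 4 lower in vehicle PM. In metformin PM, 3 were higher and 3 lower. By the edgeR test, PM raised 3 of them with metformin and 2 with vehicle, and lowered 0 in either arm. No count of Ly6g, of neutrophils, or of Epx and Prg2, of eosinophils, was found in any library, and Cd3e of T cells had 3 counts over the metformin PM libraries, 2 over the vehicle PM libraries and 0 in the other groups. The 3 tested lymphocyte markers summed to 265 to 294 CPM in metformin PM and 302 to 327 CPM in metformin PBS libraries. Their sums were 273 to 280 CPM in vehicle PM and 298 to 315 CPM in vehicle PBS libraries. By the edgeR test, PM raised 2 of these 3 genes with metformin and lowered 1. With vehicle, PM raised 2 and lowered 0. The 18 tested endothelial and stromal markers stood apart: they summed to 78.8, 92.4 and 129 CPM in metformin PM libraries, to 34.5 to 48.6 CPM in metformin PBS libraries, to 32.1, 46.5 and 78.6 CPM in vehicle PM libraries and to 37 to 65.5 CPM in vehicle PBS libraries. The sums of the 13 tested epithelial markers overlapped, at 337 to 399 CPM in metformin PM and 311 to 380 CPM in metformin PBS libraries. They were 304 to 355 CPM in vehicle PM and 325 to 366 CPM in vehicle PBS libraries. Against vehicle PBS, the median epithelial marker was at 0.63 in metformin PM, -0.06 in metformin PBS and 0.01 in vehicle PM on the log2 scale. In metformin PM, 10 of the 13 were above vehicle PBS and 3 below. The part of these other cell types in the results was not tested. In bulk RNA, a larger share of cells of a type and more RNA of its genes per cell cannot be told apart.

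An interaction was called for 171 genes, which is 1.44% of the genes tested by edgeR's quasi-likelihood test at a Benjamini-Hochberg adjusted p of 0.05. Of these, 106 were positive (0.890% of the genes tested) and 65 negative (0.546%). At an unadjusted p under 0.05 there were 1380 genes. The sizes of the called interactions ran from 0.29 to 2.57 on the log2 scale with a median of 0.64, and 33 were over 1, 24 of them positive. The median interaction of all genes tested was 0.006, which the scaling of the libraries holds near 0. The departure of each of the 171 genes had the same sign on the CPM scale as on the log2 scale. The count depended on single libraries: leaving out 1 library at a time gave 113 to 262 genes, with 113 without metformin PBS 4 and 262 without vehicle PBS 4. It depended on the filter too, since 507 genes were called with no filter on low counts. In that fit edgeR's prior degrees of freedom were infinite, so every gene took the spread of the common trend in place of its own; in the filtered fit they were 10.2.

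More departures ran through the animals that had both treatments than through any other group. For each gene, the group was taken whose fitted log2 mean lay farthest from the mean of the 4, and a gene was put down to that group alone where it held at least 0.75 of the variation between the 4 means. By this description, metformin PM stood apart in 92 of the 171 genes (53.8%), above the other groups in 63 and below them in 29. Metformin PBS stood apart in 10 genes, vehicle PM in 9 and vehicle PBS in 8, and 52 genes were mixed. The majority rests on that limit: at a share of 0.9, metformin PM held 53 of the 171 genes and 108 were mixed. With no filter on low counts it held 213 of 507. With no limit on the share, metformin PM was the farthest group in 119 of the 171 genes and in 3708 of all 11906 genes tested. It was thus the most frequent farthest group among all genes too, ahead of metformin PBS with 3379. Leaving out 1 library gave 66 to 132 genes for metformin PM, 4 to 66 for metformin PBS (66 without vehicle PBS 4), 4 to 14 for vehicle PM and 2 to 15 for vehicle PBS. In 62 of the 63 and in 27 of the 29 genes the 3 metformin PM libraries lay wholly above or wholly below the other 10 libraries. Among all genes tested, 3.94% had metformin PM wholly above and 3.63% wholly below. Metformin PBS lay wholly apart in all 10 of its genes (above in 1.51% and below in 2.64% of all genes tested). Vehicle PM did so in 8 of its 9 (above in 1.34% and below in 1.33%) and vehicle PBS in all 8 (above in 1.02% and below in 0.857%). The departing group was chosen by its distance, so nothing is read from these shares.

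**Figure D1:**
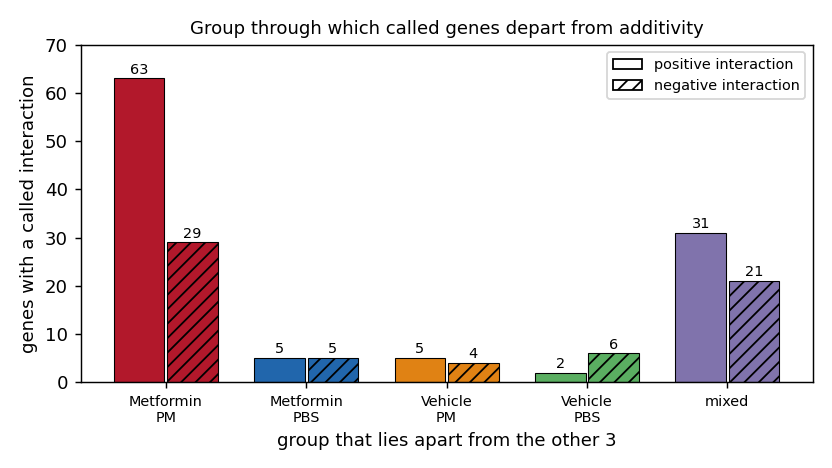
Number of genes with a called interaction (vertical axis) by the group whose mean lies apart from the other 3 (horizontal axis), for positive (plain bars) and negative (hatched bars) interactions. The metformin PM group holds 63 positive and 29 negative genes, the mixed class 31 and 21, and each of the other groups at most 10 in all.

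The simple effects describe the same genes by contrasts of the same 4 group means. PM changed 1522 genes in animals on metformin (12.8%; 7.18% higher, 5.60% lower) and 578 in animals on vehicle (4.85%; 2.60% higher, 2.26% lower), by the edgeR test. Metformin changed 820 genes in PM animals (6.89%; 4.08% higher, 2.81% lower) and 365 in PBS animals (3.07%; 1.13% higher, 1.93% lower). Of the 171 genes, 74 rose with PM in metformin animals and did not pass the test in vehicle animals, and 43 fell with PM in metformin animals and did not pass in vehicle animals. A further 13 rose and 12 fell with PM only in the vehicle arm's test, and in 8 a rise in both arms was larger with metformin. The PM effects of the 2 arms had opposite signs in 98 genes, and in 9 of these both effects were called. Of the 63 genes with metformin PM above the rest, all 63 were called for PM in metformin animals and all 63 for metformin in PM animals, and 58 of them were called for neither effect in the other animals. All 5 comparisons share libraries, so these counts are not independent of each other. The 63 genes were classed by the same 4 means, which largely fixed their simple-effect calls in advance, so nothing is read from those calls.

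**Figure D2:**
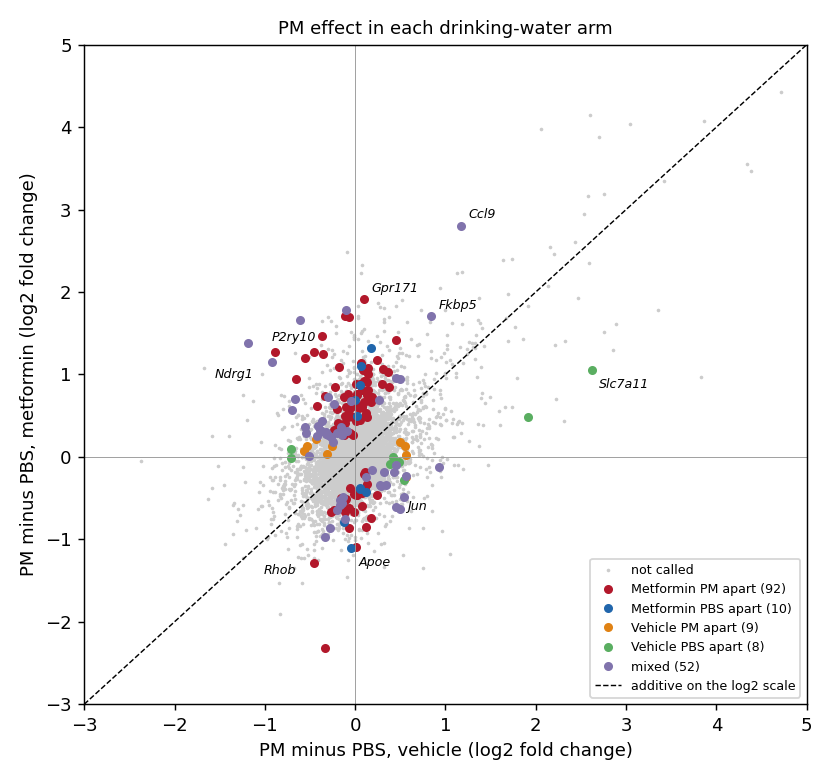
PM effect in animals on metformin (vertical axis) against PM effect in animals on vehicle (horizontal axis), both as log2 fold changes, for all genes tested (grey) and for called genes coloured by the group that lies apart. Genes on the dashed line are additive. Red points (metformin PM apart) lie above or below it, at vehicle effects that include -0.89 for P2ry10 and -0.46 for Rhob. Slc7a11 lies to the right. 1 gene that was not called lies outside the frame.

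Several transcription factors and signal-induced regulators departed from additivity, in both directions. Nr4a3 (an orphan nuclear receptor), Crem (a cAMP-responsive transcription factor with repressor forms) and Per1 (a clock repressor) were higher, while Jun, Fos and Rhob were lower than additivity gives. Cells switch on many of these genes within minutes of a stimulus, often through cAMP response elements. The 300 bases around the annotated start are shown for 4 of them, since they move in opposite directions. They run from 250 bases before to 50 bases after the start in RefSeq's GRCm38.p6 table, on the strand of the gene. Capitals mark TGACG or its reverse complement, called a core site here. The full element is TGACGTCA. Nr4a3 is at chr4:48045055-48045354 (plus strand), Per1 at chr11:69098699-69098998 (plus strand, the first of 2 listed starts), Fos at chr12:85473640-85473939 (plus strand) and Jun at chr4:95052173-95052472 (minus strand).
Nr4a3: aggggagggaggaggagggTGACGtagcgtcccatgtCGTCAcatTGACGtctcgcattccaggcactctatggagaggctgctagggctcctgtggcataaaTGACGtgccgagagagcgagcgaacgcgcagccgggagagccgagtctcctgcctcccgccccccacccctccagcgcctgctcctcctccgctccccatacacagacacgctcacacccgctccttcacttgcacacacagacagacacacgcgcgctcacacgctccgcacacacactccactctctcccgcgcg
Per1: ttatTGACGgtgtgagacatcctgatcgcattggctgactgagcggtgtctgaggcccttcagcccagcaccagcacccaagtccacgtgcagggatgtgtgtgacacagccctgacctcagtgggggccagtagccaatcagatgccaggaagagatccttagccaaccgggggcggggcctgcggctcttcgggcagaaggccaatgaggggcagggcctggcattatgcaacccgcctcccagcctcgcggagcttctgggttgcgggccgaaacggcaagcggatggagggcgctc
Fos: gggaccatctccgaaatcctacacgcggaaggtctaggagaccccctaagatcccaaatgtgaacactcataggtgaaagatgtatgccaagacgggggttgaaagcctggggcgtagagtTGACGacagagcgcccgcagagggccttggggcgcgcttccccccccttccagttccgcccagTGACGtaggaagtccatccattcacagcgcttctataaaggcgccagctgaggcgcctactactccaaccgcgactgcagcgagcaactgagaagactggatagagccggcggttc
Jun: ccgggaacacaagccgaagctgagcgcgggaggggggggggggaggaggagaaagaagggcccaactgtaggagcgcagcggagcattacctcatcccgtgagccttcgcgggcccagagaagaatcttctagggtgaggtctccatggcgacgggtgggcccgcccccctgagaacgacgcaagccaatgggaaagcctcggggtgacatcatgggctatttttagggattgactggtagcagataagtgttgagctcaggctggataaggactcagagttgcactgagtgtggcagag
The Nr4a3 window held 4 core sites, the Fos window held 2, each of the 2 Per1 windows held 1 and the Jun window held none. Of all 27025 genes with a promoter in the table, tested or not, 0.255% reached 4 core sites and 23% held at least 1. The second share is lower than among the tested genes, given below, so 0.255% is not the share among tested genes. None of the 4 genes had a full element in these windows. Of the genes with metformin PM above the rest, 50 had a promoter in the table and 18 of these (36%) held a core site on either strand. The share was 35% (7 of 20) for genes with metformin PM below the rest and 36.6% among the 9022 tested genes with a promoter, so the core site was about as frequent in all 3 sets. A full element was found in 0 of the 50, in 1 of the 20 and in 3.72% of the tested genes. The core site is part of the full element, and such a match is a description of letters only.

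Nr4a3 (ENSMUSG00000028341; chromosome 4, 48045153 to 48086447, mm10) had 86.5, 65.9 and 79.2 CPM in metformin PM libraries and 42.6, 21.3 and 37.1 CPM in metformin PBS libraries. In vehicle animals, Nr4a3 had 31.8, 21 and 34.1 CPM in PM libraries and 61.1, 27.3, 48.3 and 32.9 CPM in PBS libraries. Every metformin PM library was above the other 10, and the vehicle PBS libraries were widely spread. Its interaction was 1.75 ± 0.33 (log2 ± SE; edgeR adjusted p = 0.00892), so the level with both treatments was 3.36 times the additive level. Crem had 62.6, 41.1 and 40.9 CPM in metformin PM libraries, against 15.5 to 24.9 CPM in metformin PBS, 9.95 to 16.8 CPM in vehicle PM and 11.9 to 22.5 CPM in vehicle PBS libraries. Every metformin PM library was above the other 10, whose groups overlapped, and the interaction was 1.73 ± 0.31 (edgeR adjusted p = 0.00607). Per1 (chromosome 11, 69095217 to 69109960) had 335, 285 and 261 CPM in metformin PM libraries and 171, 176 and 185 CPM in metformin PBS libraries. In vehicle animals, Per1 had 224, 174 and 204 CPM in PM libraries and 215, 185, 251 and 220 CPM in PBS libraries. The interaction was 0.85 ± 0.14 (edgeR adjusted p = 0.00399). Ets2, a transcription factor downstream of Ras signalling, was at 285 to 348 CPM in metformin PM libraries, against 164 to 190 CPM in metformin PBS, 170 to 212 CPM in vehicle PM and 188 to 207 CPM in vehicle PBS libraries. Its PM effect was 0.89 in metformin animals and 0.01 in vehicle animals on the log2 scale, and its interaction was 0.88 ± 0.12 (edgeR adjusted p = 0.000842).

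**Figure D3:**
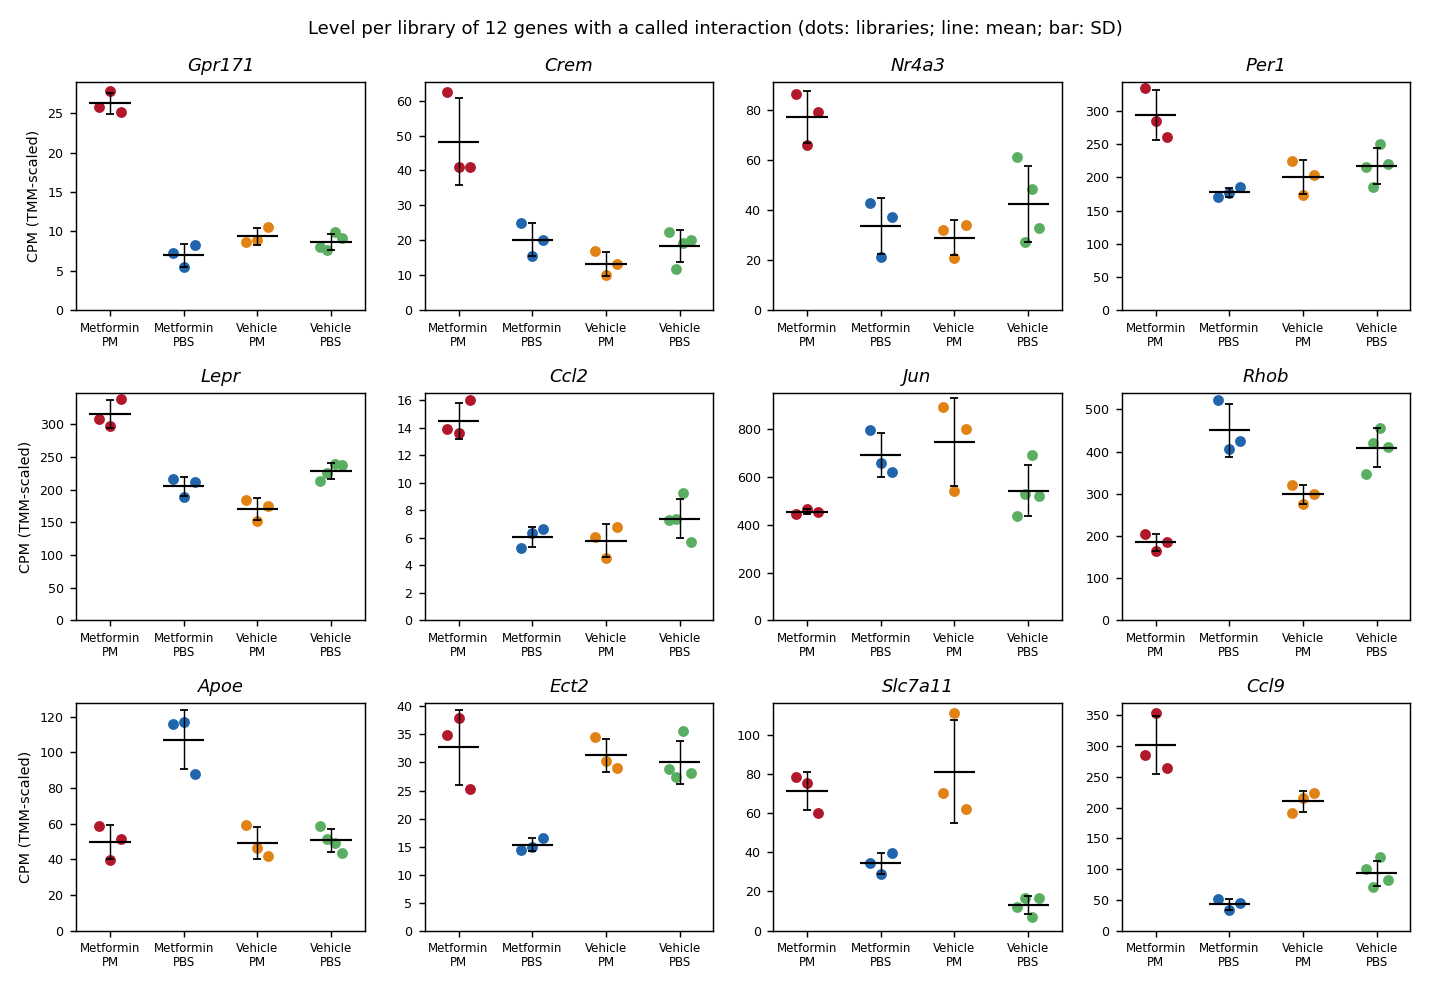
CPM of 12 genes with a called interaction (vertical axes, from 0) in each library of the 4 groups (horizontal axes), with the mean as a line and the SD as a bar. Gpr171, Crem, Nr4a3, Per1, Lepr and Ccl2 are high in the 3 metformin PM libraries, Rhob is low there, Apoe and Ect2 depart in metformin PBS libraries and Slc7a11 in vehicle PBS libraries.

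The lowest adjusted p of the interaction belonged to Lepr, the leptin receptor, which had 308, 298 and 339 CPM in metformin PM libraries and 216, 189 and 211 CPM in metformin PBS libraries. In vehicle animals, Lepr had 184, 152 and 175 CPM in PM libraries and 213, 226, 239 and 238 CPM in PBS libraries. PM was followed by a rise of 0.62 with metformin and by a change of -0.42 with vehicle on the log2 scale, both called. The interaction of 1.04 ± 0.10 (edgeR adjusted p = 4.21e-05) put the level at 2.06 times the additive one. Gpr171 and P2ry10 encode G protein-coupled receptors found on leukocytes. Gpr171 had 25.8, 27.8 and 25.2 CPM in metformin PM libraries and 7.2, 5.42 and 8.32 CPM in metformin PBS libraries. In vehicle animals, Gpr171 had 8.62, 8.86 and 10.6 CPM in PM libraries and 8.07, 7.68, 9.88 and 9.11 CPM in PBS libraries. The other 3 groups lay close together, and the interaction was 1.80 ± 0.21 (edgeR adjusted p = 0.000275). P2ry10 had 10.7, 6.37 and 9.18 CPM in metformin PM libraries, against at most 4.86 CPM in any other library, an interaction of 2.16 ± 0.34 (edgeR adjusted p = 0.00234).

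Single members of other lists were also above the rest in metformin PM. Ccl2, the chief monocyte-attracting chemokine, had 13.9, 13.6 and 16 CPM in metformin PM libraries and 5.24, 6.37 and 6.62 CPM in metformin PBS libraries. In vehicle animals, Ccl2 had 6.07, 4.51 and 6.83 CPM in PM libraries and 7.28, 7.36, 9.25 and 5.72 CPM in PBS libraries. PM raised it with metformin (1.25 log2), its value with vehicle was -0.36 and did not pass, and the interaction was 1.60 ± 0.25 (edgeR adjusted p = 0.00253). Plaur, the urokinase receptor that places plasminogen activation at the cell surface, was the single called gene of 13 tested coagulation and fibrinolysis genes (7.69%, against 1.44% of all genes tested). It had 1100, 939 and 885 CPM in metformin PM libraries, against 500 to 630 CPM in metformin PBS, 557 to 628 CPM in vehicle PM and 537 to 597 CPM in vehicle PBS libraries. The interaction was 0.73 ± 0.11 (edgeR adjusted p = 0.00234). Cd80, a costimulator of T cells, was at 28.3 to 37 CPM in metformin PM libraries, against 16.9 to 21 CPM in metformin PBS, 15.4 to 19.7 CPM in vehicle PM and 19.3 to 28.7 CPM in vehicle PBS libraries. Its interaction was 1.07 ± 0.20 (edgeR adjusted p = 0.00805), and its highest vehicle PBS library overlapped the metformin PM range. Ece1, which cleaves big endothelin, was at 22.5 to 24.1 CPM in metformin PM libraries and at 7.06 to 17.5 CPM in the other 10, with an interaction of 1.60 ± 0.20 (edgeR adjusted p = 0.000653). Ifi204, an interferon-induced DNA sensor, was the single called gene of 19 tested interferon-stimulated genes (5.26%, against 1.44% of all genes tested). Its interaction was 0.71 ± 0.16 (edgeR adjusted p = 0.0254). It stayed called without vehicle PBS 1, 2 or 4, metformin PBS 1, vehicle PM 1 or metformin PM 1 and in no other fit that left out a library.

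Targets of the glucocorticoid receptor, the hormone-activated repressor of inflammation, held the largest share of called members among the lists named here. Of 13 tested members of the glucocorticoid-induced list, 5 had a positive and 1 a negative called interaction (46.2%, against 1.44% of all genes tested), and the median interaction was 0.42 against 0.006 for all genes. The summed level of the list ran the other way from its median: it averaged 6192 CPM in metformin PM, 5296 CPM in metformin PBS, 7123 CPM in vehicle PM and 5130 CPM in vehicle PBS libraries, highest with vehicle PM. Besides Per1 the called members were Fkbp5 (a chaperone that restrains the receptor), Tsc22d3 (the anti-inflammatory protein GILZ), Mt2 (a metal-binding metallothionein) and Klf9 (a transcription factor), with Sgk1 (a kinase of ion transport) in the other direction. Fkbp5 rose with PM in both arms, to 315, 343 and 351 CPM in metformin PM libraries, against 101, 102 and 106 CPM in metformin PBS libraries, and to 251, 228 and 176 CPM in vehicle PM libraries, against 123, 120, 142 and 103 CPM in vehicle PBS libraries. The log2 PM effect was 1.70 with metformin and 0.84 with vehicle, and the interaction was 0.86 ± 0.15 (edgeR adjusted p = 0.00451). Tsc22d3 had 152, 134 and 110 CPM in metformin PM libraries and 108, 119 and 99.5 CPM in metformin PBS libraries. In vehicle animals, Tsc22d3 had 116, 117 and 120 CPM in PM libraries and 149, 150, 152 and 138 CPM in PBS libraries. It rose with PM in one arm and fell in the other, with an interaction of 0.61 ± 0.12 (edgeR adjusted p = 0.0119), while its metformin PM level lay within the vehicle PBS range or below it.

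Mt2 had 76.7, 77.4 and 75.3 CPM in metformin PM libraries and 52.2, 31.1 and 38.4 CPM in metformin PBS libraries. In vehicle animals, Mt2 had 55.2, 56.6 and 50.6 CPM in PM libraries and 55.9, 46.5, 53.1 and 47.3 CPM in PBS libraries. The interaction was 0.82 ± 0.16 (edgeR adjusted p = 0.0111). Its neighbour in function Mt1 had 0.40 ± 0.11 and did not pass (edgeR adjusted p = 0.069). Klf9 was at 42.9 to 52.5 CPM in metformin PM libraries and at most 36.2 CPM elsewhere; its interaction of 0.60 ± 0.14 (edgeR adjusted p = 0.0334) was called in 6 of the 13 fits that left out a library, those without vehicle PBS 1 or 4, metformin PBS 1, vehicle PM 2, and metformin PM 3 or 4. Sgk1 was at 1540 to 1570 CPM in metformin PM, 1710 to 1840 CPM in metformin PBS, 1960 to 1990 CPM in vehicle PM and 1380 to 1730 CPM in vehicle PBS libraries, highest in vehicle PM. The interaction was -0.50 ± 0.09 (edgeR adjusted p = 0.00538). The list was chosen with these results known, so its share is a description. Without vehicle PBS 3, in a fit that called 151 of all 11868 genes tested, the list held 3 negative calls in place of 1. It held 4 to 6 positive calls over the 13 fits.

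The immediate early genes, the first transcription factors and feedback regulators that a stimulus induces, leaned the other way. Of 30 tested members, 6 had a negative called interaction (Jun, Rhob, Fos, Btg2, Junb and Klf4; 0.546% of all genes tested were negative) and 2 a positive one (Nr4a3 and Crem; 0.890% of all genes tested), and 22 of the 30 values were below 0, with a median of -0.175. Without vehicle PBS 3, in a fit that called 151 of all 11868 genes tested, there were 10 negative calls, and over the 13 fits between 5 and 10. Jun, a subunit of the AP-1 transcription factor (chromosome 4, 95049034 to 95052222), had 447, 466 and 453 CPM in metformin PM libraries and 797, 660 and 622 CPM in metformin PBS libraries. In vehicle animals, Jun had 895, 541 and 801 CPM in PM libraries and 435, 528, 691 and 520 CPM in PBS libraries. It fell with PM in metformin animals (-0.61 log2), its value in vehicle animals was 0.46 and did not pass, and the level with both treatments was 0.479 times the additive one (interaction -1.06 ± 0.20; edgeR adjusted p = 0.00892). The metformin PM libraries were thus near vehicle PBS, below both single treatments. Fos, the partner of Jun in AP-1, departed through vehicle PM: it had 1990, 2470 and 2170 CPM in metformin PM libraries and 2590, 2790 and 2440 CPM in metformin PBS libraries. In vehicle animals, Fos had 3190, 3120 and 3240 CPM in PM libraries and 1640, 2190, 2540 and 2230 CPM in PBS libraries, so every vehicle PM library was above the other 10. PM raised Fos with vehicle (0.57 log2), the value with metformin was -0.24 and did not pass, and the interaction was -0.81 ± 0.14 (edgeR adjusted p = 0.00607).

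Rhob, an endosomal GTPase, fell with PM in both arms and farther with metformin. It had 204, 165 and 186 CPM in metformin PM libraries and 522, 405 and 424 CPM in metformin PBS libraries. In vehicle animals, Rhob had 321, 275 and 300 CPM in PM libraries and 348, 421, 457 and 412 CPM in PBS libraries. The PM effect was -1.28 with metformin and -0.46 with vehicle on the log2 scale, both called, and the interaction was -0.83 ± 0.14 (edgeR adjusted p = 0.00392). Btg2, an antiproliferative regulator of mRNA decay, was at 829 to 900 CPM in metformin PM libraries, against 1090 to 1290 CPM in metformin PBS, 1090 to 1290 CPM in vehicle PM and 862 to 1210 CPM in vehicle PBS libraries, and its lowest vehicle PBS library overlapped the metformin PM range. Its interaction was -0.71 ± 0.13 (edgeR adjusted p = 0.00607). Klf4, a transcription factor of monocyte differentiation, was at 266 to 333 CPM in metformin PM libraries and at 365 to 426 CPM in the other 10, an interaction of -0.44 ± 0.09 (edgeR adjusted p = 0.0163). Junb, another AP-1 subunit, had -0.61 ± 0.13 (edgeR adjusted p = 0.0178), and its call was lost without vehicle PM 1, at -0.56.

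**Figure D4:**
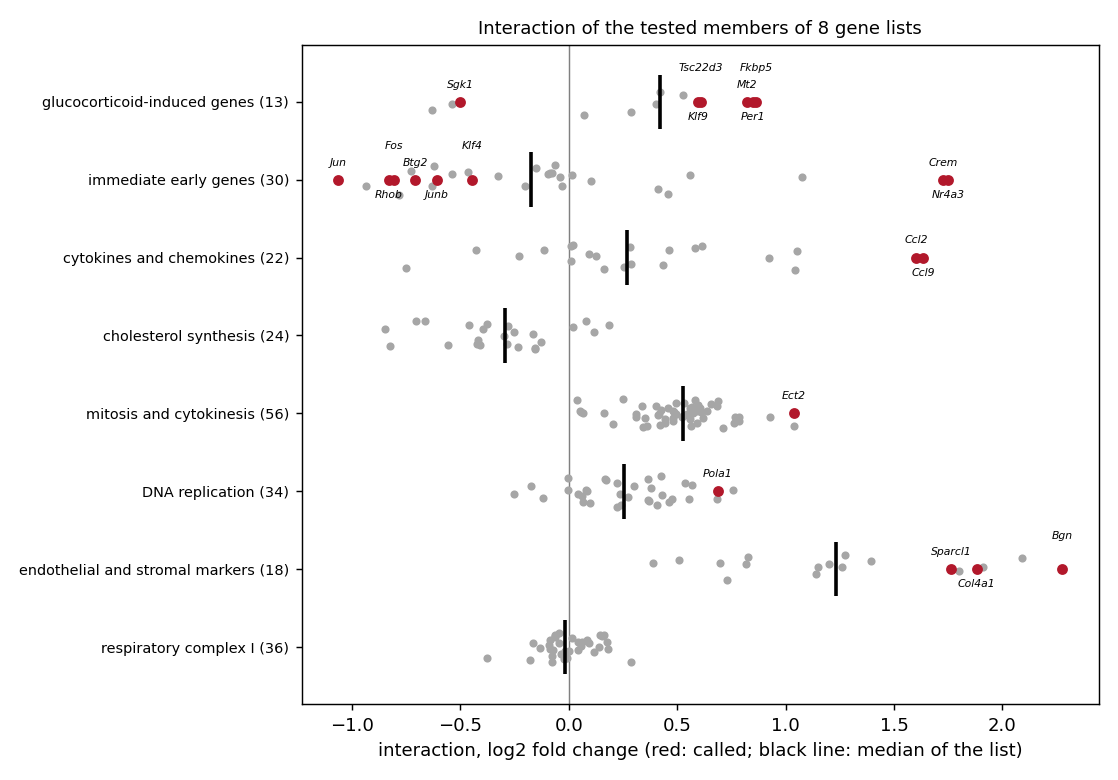
Interaction as a log2 fold change (horizontal axis) of each tested member of 8 gene lists (rows, with the number tested); red points are called genes and black lines the medians. Glucocorticoid-induced and immediate early members lie on both sides of 0, all 56 mitosis members lie above 0, with a single call, and complex I members lie near 0.

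Further genes with a negative interaction, most of them with metformin PM below the rest, came from different lists or from none. Bhlhe41, a repressor that alveolar macrophages use for self-renewal, had 84.9, 82 and 108 CPM in metformin PM libraries and 138, 162 and 158 CPM in metformin PBS libraries. In vehicle animals, Bhlhe41 had 170, 214 and 155 CPM in PM libraries and 178, 152, 162 and 144 CPM in PBS libraries. Its interaction was -0.92 ± 0.15 (edgeR adjusted p = 0.00444). Its paralog Bhlhe40 departed through vehicle PBS, where it was lowest. It was at 474 to 619 CPM in the other 9 libraries and at 400 to 456 CPM in vehicle PBS libraries, an interaction of -0.42 ± 0.10 (edgeR adjusted p = 0.0397), and stayed called without vehicle PBS 3 or 4, metformin PBS 1 or 4, or vehicle PM 2 and in no other fit that left out a library. Of the 34 tested alveolar macrophage markers these were the called members (5.88%, against 1.44% of all genes tested), and the median of the list was -0.02. Zfp217, a zinc finger repressor, had 35.7, 36.9 and 32.1 CPM in metformin PM libraries and 59.7, 66.1 and 63.8 CPM in metformin PBS libraries. In vehicle animals, Zfp217 had 52.7, 58.3 and 54.6 CPM in PM libraries and 38.6, 54.8, 57.2 and 52.5 CPM in PBS libraries. The interaction was -0.97 ± 0.15 (edgeR adjusted p = 0.00234).

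Fgr, a Src family kinase of myeloid cells, was at 249 to 266 CPM in metformin PM libraries and at 325 to 374 CPM in the other 10, with an interaction of -0.45 ± 0.08 (edgeR adjusted p = 0.00538). Tfeb, the master regulator of lysosome genes, was at 47 to 49.2 CPM in metformin PM libraries and at 68.2 to 84.4 CPM elsewhere, an interaction of -0.51 ± 0.10 (edgeR adjusted p = 0.00935). It was the called member of 38 tested lysosome and autophagy genes (2.63%, against 1.44% of all genes tested), whose median was 0.008. Ptpro, a receptor tyrosine phosphatase, had 5.09, 4.97 and 4.98 CPM in metformin PM libraries and 7.49 to 12.4 CPM in the others, at -1.10 ± 0.24 (edgeR adjusted p = 0.0203), and the call was lost without metformin PBS 3 (-0.99), vehicle PM 1 (-1.05) or vehicle PM 2 (-1.08). Gdf15, a stress-induced cytokine that metformin raises in blood, was mixed: it had 49.9, 56.3 and 67.9 CPM in metformin PM libraries and 112, 80.9 and 76.4 CPM in metformin PBS libraries. In vehicle animals, Gdf15 had 131, 101 and 99.8 CPM in PM libraries and 86.6, 62.2, 99.3 and 67.2 CPM in PBS libraries. It fell with PM in metformin animals (-0.64 log2), its value in vehicle animals was 0.49 and did not pass, and the interaction was -1.13 ± 0.22 (edgeR adjusted p = 0.011). Prr33 had the most negative called value, -1.99 ± 0.48 (edgeR adjusted p = 0.0417), at 1.09 to 2.42 CPM in metformin PM libraries and 2.64 to 11.3 CPM elsewhere. This call did not hold with limma-voom, and without a library it held only for vehicle PBS 4, metformin PBS 1, vehicle PM 2 or metformin PM 3.

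In 9 genes the vehicle PM mean stood apart from the other 3, above them in 4, Fos among these, and below them in 5. Pnrc1, a nuclear receptor coactivator, had 153, 142 and 163 CPM in metformin PM libraries and 156, 145 and 148 CPM in metformin PBS libraries. In vehicle animals, Pnrc1 had 199, 173 and 193 CPM in PM libraries and 116, 127, 148 and 120 CPM in PBS libraries. The log2 PM effect was 0.03 with metformin and 0.56 with vehicle, and the interaction was -0.54 ± 0.11 (edgeR adjusted p = 0.0133). Icam1, the adhesion molecule for leukocyte integrins, was at 117 to 119 CPM in metformin PM, 101 to 107 CPM in metformin PBS, 148 to 165 CPM in vehicle PM and 109 to 114 CPM in vehicle PBS libraries. It rose with PM in both arms, by 0.18 with metformin and 0.50 with vehicle, and the interaction was -0.32 ± 0.08 (edgeR adjusted p = 0.0402). The Icam1 call did not hold with upper quartile scaling or with the replicate block, and it stayed called without vehicle PBS 1 or 4, metformin PBS 1 or vehicle PM 2 and in no other fit that left out a library.

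In 10 genes the metformin PBS mean stood apart, above the other 3 in 5 and below them in 5. Apoe, a lipid carrier secreted by macrophages, had 58.5, 39.4 and 51.5 CPM in metformin PM libraries and 116, 117 and 87.9 CPM in metformin PBS libraries. In vehicle animals, Apoe had 59.2, 46.6 and 41.6 CPM in PM libraries and 58.9, 51.2, 49.3 and 43.4 CPM in PBS libraries. Metformin changed it by 1.07 in PBS animals and by 0.01 in PM animals on the log2 scale, and the interaction was -1.06 ± 0.20 (edgeR adjusted p = 0.00805). Gna15, a G protein subunit of blood cells, was at 75.9 to 82.5 CPM in metformin PM, 98.5 to 118 CPM in metformin PBS, 88 to 93.3 CPM in vehicle PM and 79.6 to 91.5 CPM in vehicle PBS libraries (interaction -0.55 ± 0.10; edgeR adjusted p = 0.00607). Gadd45g, a growth arrest gene, was at 56.6 to 73.5 CPM in metformin PM, 107 to 123 CPM in metformin PBS, 69.9 to 92.2 CPM in vehicle PM and 80.4 to 93.7 CPM in vehicle PBS libraries (interaction -0.67 ± 0.14; edgeR adjusted p = 0.015).

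Genes of cell division had the opposite form, low in metformin PBS. Alveolar macrophages renew themselves by division in the lung. Ect2, an exchange factor that sets the cleavage furrow, had 34.9, 38 and 25.2 CPM in metformin PM libraries and 14.4, 15 and 16.6 CPM in metformin PBS libraries. In vehicle animals, Ect2 had 34.6, 30.2 and 29.1 CPM in PM libraries and 28.8, 27.4, 35.7 and 28.2 CPM in PBS libraries. Its interaction was 1.04 ± 0.19 (edgeR adjusted p = 0.00709). Ect2 was the single called member of 56 tested mitosis and cytokinesis genes (1.79%, against 1.44% of all genes tested). Yet all 56 values were above 0, against 6109 of all 11906 genes tested, with a median of 0.53 against 0.006 for all genes. The list summed to 2329, 2386 and 2153 CPM in metformin PM libraries, to 1537, 1510 and 1543 CPM in metformin PBS libraries, to 2564, 2642 and 2668 CPM in vehicle PM libraries, and to 3016, 2416, 2254 and 1804 CPM in vehicle PBS libraries. Metformin PBS was lowest in every sum, and the vehicle PBS libraries were the most uneven. By the edgeR test of each effect, PM raised 43 of the 56 genes with metformin (7.18% of all genes tested) and 1 with vehicle (2.60%). Metformin lowered 2 in PM animals (2.81% of all genes tested) and 45 in PBS animals (1.93%).

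The number of called division genes rested on the vehicle PBS libraries. Without vehicle PBS 4, the one with the lowest sum, 22 of the 56 had a called interaction and the median was 0.63. That fit called 262 of all 11865 genes tested, against 171 of 11906 with all libraries. Without vehicle PBS 1, the one with the highest sum, 1 was called, 52 were above 0 and the median was 0.36. That fit called 153 of all 11869 genes tested. Of 34 tested DNA replication genes, Pola1 (a subunit of DNA polymerase alpha) was called (2.94%, against 1.44% of all genes tested). In this list 29 were above 0, with a median of 0.26, and 6 were called in the fit without vehicle PBS 4. Pola1 itself, at 0.69 ± 0.17 (edgeR adjusted p = 0.049), stayed called without vehicle PBS 4, metformin PBS 1 or metformin PM 4 and in no other such fit, and it was not called by limma-voom, with RLE size factors, with the replicate block or after thinning. Outside the lists, Dlgap5, a spindle protein, had 0.82 ± 0.19 (edgeR adjusted p = 0.0366) and stayed called without vehicle PBS 2 or 4 or metformin PBS 1. Depdc1a, a mitotic regulator, had 1.15 ± 0.28 (edgeR adjusted p = 0.0438), stayed called without vehicle PBS 3 or 4, and was not called by DESeq2 or limma-voom.

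**Figure D5:**
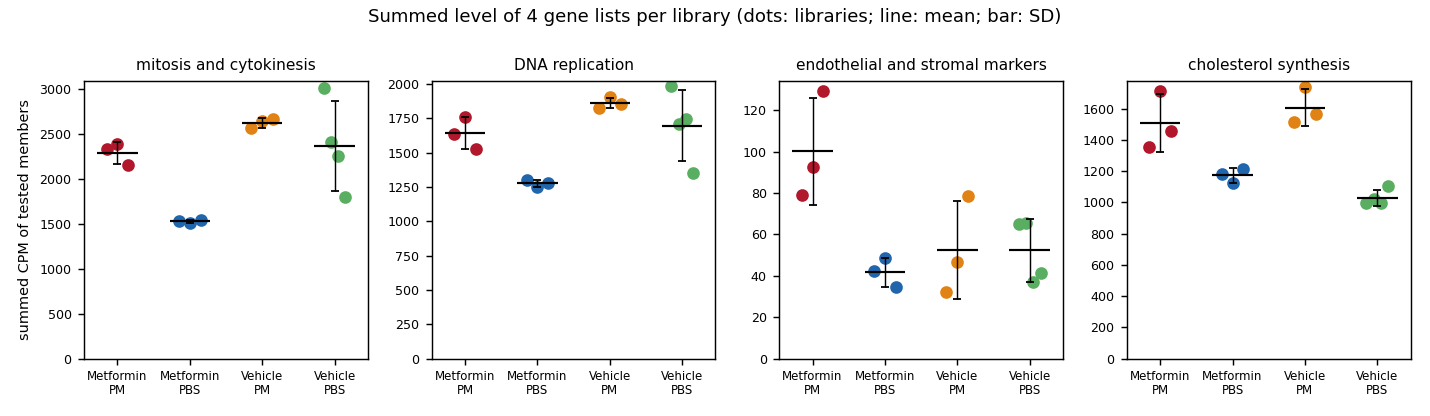
Summed CPM (vertical axes, from 0) of the tested members of 4 gene lists in each library of the 4 groups (horizontal axes), with the mean as a line and the SD as a bar. The mitosis sum is lowest in metformin PBS (1510 to 1543 CPM) and spread from 1804 to 3016 CPM in vehicle PBS; the endothelial and stromal sum is highest in metformin PM (78.8 to 129 CPM); the cholesterol sum is lower in both PBS groups than in both PM groups.

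Vehicle PBS stood apart in 8 genes, below the other 3 groups in 6 and above them in 2. Slc7a11, the cystine importer that feeds glutathione synthesis, had 78.2, 75.3 and 60.1 CPM in metformin PM libraries and 34.5, 29 and 39.4 CPM in metformin PBS libraries. In vehicle animals, Slc7a11 had 70.1, 111 and 61.9 CPM in PM libraries and 12, 16.9, 7.17 and 16.8 CPM in PBS libraries. It rose with PM by 1.06 in metformin animals and by 2.62 in vehicle animals on the log2 scale, and metformin raised it by 1.38 in PBS animals. The level with both treatments was 0.338 times the additive one (interaction -1.56 ± 0.30; edgeR adjusted p = 0.00921). It was the single called gene of 29 tested NRF2 targets, the antioxidant programme (3.45%, against 1.44% of all genes tested). Hmox1 (heme oxygenase, -1.08 ± 0.32) and Nqo1 (a quinone reductase, -1.22 ± 0.42) had values of the same sign that did not pass (edgeR adjusted p = 0.119 and 0.206). Hmox1 had 257, 304 and 250 CPM in metformin PM libraries and 263, 182 and 266 CPM in metformin PBS libraries. In vehicle animals, Hmox1 had 300, 591 and 208 CPM in PM libraries and 151, 171, 138 and 150 CPM in PBS libraries, so vehicle PM 2 stood far above the rest. Its interaction was -0.56 without vehicle PM 2 and was called, at -1.37, without vehicle PM 3. Arrb1, the beta-arrestin that desensitizes receptors, was at 27.8 to 33.5 CPM in metformin PM, 36.2 to 40.4 CPM in metformin PBS, 30.9 to 42.1 CPM in vehicle PM and 22.2 to 26.3 CPM in vehicle PBS libraries. The interaction was -0.82 ± 0.16 (edgeR adjusted p = 0.00831).

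Among the 52 mixed genes, Ccl9 and Sla rose with PM in both arms to different degrees, and Ell2 rose in metformin animals, with a value of -0.05 in vehicle animals that did not pass. Ccl9, a chemokine of macrophages, rose with PM in both arms. It had 286, 354 and 264 CPM in metformin PM libraries and 51.1, 33.6 and 44.8 CPM in metformin PBS libraries. In vehicle animals, Ccl9 had 191, 215 and 224 CPM in PM libraries and 99.7, 71.4, 119 and 82.2 CPM in PBS libraries. The 4 groups did not overlap: metformin lowered the PBS level by 1.11 and raised the PM level by 0.53 on the log2 scale, both called, and the interaction was 1.64 ± 0.21 (edgeR adjusted p = 0.000653). Sla, an adaptor that dampens receptor signalling, was at 691 to 711 CPM in metformin PM, 352 to 375 CPM in metformin PBS, 535 to 592 CPM in vehicle PM and 399 to 436 CPM in vehicle PBS libraries, with an interaction of 0.50 ± 0.07 (edgeR adjusted p = 0.00197). Ell2, a transcription elongation factor, was at 65.7 to 75.3 CPM in metformin PM, 42.7 to 44.9 CPM in metformin PBS, 53 to 57.5 CPM in vehicle PM and 50 to 61.7 CPM in vehicle PBS libraries. The interaction was 0.73 ± 0.11 (edgeR adjusted p = 0.00234).

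Metal handling genes were called in both directions, 3 positive and 2 negative of 16 tested (31.2%, against 1.44% of all genes tested). The positive ones were Ndrg1, Slc30a1 and Mt2, the negative ones Tfrc and Slc7a11. Mt2 is also counted in the glucocorticoid-induced list, Slc7a11 among the NRF2 targets and Ndrg1 among hypoxia-response genes, so this share is not a separate result. The list too was chosen with earlier results known, and its share is a description. Tfrc, the transferrin receptor for iron uptake, had 19.4, 22 and 21.3 CPM in metformin PM libraries and 19.2, 25.8 and 23.4 CPM in metformin PBS libraries. In vehicle animals, Tfrc had 28.7, 36.1 and 28.8 CPM in PM libraries and 19, 15.5, 16.9 and 14.1 CPM in PBS libraries. It rose with PM in vehicle animals, where the groups did not overlap, and the interaction was -1.05 ± 0.18 (edgeR adjusted p = 0.00458). Slc30a1, the zinc exporter, had 17.1, 18 and 23.8 CPM in metformin PM libraries and 15.6, 12.4 and 11.6 CPM in metformin PBS libraries. In vehicle animals, Slc30a1 had 10.3, 11.5 and 8.13 CPM in PM libraries and 19.9, 16.3, 14.3 and 14.3 CPM in PBS libraries. The interaction was 1.26 ± 0.23 (edgeR adjusted p = 0.00744). Ndrg1, a gene of hypoxia and iron depletion, had the largest value of this list, 2.07 ± 0.31 (edgeR adjusted p = 0.00234). Its level was 8.71 to 11.9 CPM in metformin PM, 3.39 to 5.73 CPM in metformin PBS, 2.8 to 5.85 CPM in vehicle PM and 8.58 to 9.65 CPM in vehicle PBS libraries: either treatment alone lowered it, and the libraries with both overlapped those with neither. Tnfaip2, a TNF-induced gene of the NF-kB list, was at 1050 to 1170 CPM in metformin PM, 1270 to 1360 CPM in metformin PBS, 1210 to 1300 CPM in vehicle PM and 1120 to 1220 CPM in vehicle PBS libraries, with an interaction of -0.37 ± 0.07 (edgeR adjusted p = 0.0111).

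In 9 genes PM had called effects of opposite sign in the 2 arms. Lepr, Ece1, Ndrg1, Hsd11b1, Slc30a1, Reps2, Entpd1 and Tsc22d3 rose with PM in metformin animals and fell in vehicle animals, and Tbc1d2, a Rab GTPase-activating protein, did the reverse. Hsd11b1, the enzyme that regenerates active glucocorticoid, had 14.5, 13 and 16.5 CPM in metformin PM libraries and 8.02, 8.28 and 10.6 CPM in metformin PBS libraries. In vehicle animals, Hsd11b1 had 6.78, 4.98 and 6.02 CPM in PM libraries and 10.6, 7.68, 10 and 9.47 CPM in PBS libraries. Its PM effect was 0.70 with metformin and -0.67 with vehicle, and the interaction was 1.36 ± 0.23 (edgeR adjusted p = 0.0047). Reps2, an endocytic adaptor, was at 58.3 to 69.4 CPM in metformin PM, 47.3 to 56.6 CPM in metformin PBS, 43.6 to 47.1 CPM in vehicle PM and 58.3 to 61.6 CPM in vehicle PBS libraries (interaction 0.79 ± 0.11; edgeR adjusted p = 0.00206). Entpd1, the surface enzyme CD39 that removes ATP, was at 111 to 137 CPM in metformin PM, 98.8 to 112 CPM in metformin PBS, 89.6 to 94.6 CPM in vehicle PM and 108 to 117 CPM in vehicle PBS libraries (interaction 0.51 ± 0.10; edgeR adjusted p = 0.0101). Tbc1d2 was at 51.1 to 60.8 CPM in metformin PM, 60.1 to 77.7 CPM in metformin PBS, 79.8 to 102 CPM in vehicle PM and 68.4 to 75.3 CPM in vehicle PBS libraries (interaction -0.68 ± 0.13; edgeR adjusted p = 0.00989).

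Matrix and vessel genes were among the largest positive values, and they are genes that macrophages express little. Bgn (biglycan) had 6.95, 4.33 and 7.63 CPM in metformin PM libraries and 1.15, 2.71 and 2 CPM in metformin PBS libraries. In vehicle animals, Bgn had 1.55, 2.49 and 3.9 CPM in PM libraries and 5.7, 4.54, 1.75 and 3.93 CPM in PBS libraries. The interaction was 2.28 ± 0.53 (edgeR adjusted p = 0.0347). The metformin PM and vehicle PBS libraries overlapped. Col4a1 (basement membrane collagen) had 1.88 ± 0.46 (edgeR adjusted p = 0.0442), Sparcl1 (a matrix glycoprotein) 1.76 ± 0.42 (edgeR adjusted p = 0.0372), Timp3 (a metalloproteinase inhibitor) 1.83 ± 0.45 (edgeR adjusted p = 0.0449) and Ltbp4 (a carrier of latent TGF-beta) 1.83 ± 0.38 (edgeR adjusted p = 0.015). Bgn, Col4a1 and Sparcl1 were the 3 called of the 18 tested endothelial and stromal markers (16.7%, against 1.44% of all genes tested). All 18 were above 0 with a median of 1.23, against 6109 of all 11906 genes tested and a median of 0.006. The summed level of the tested markers, given above, was at least 78.8 CPM in metformin PM libraries and at most 78.6 CPM in the others. Over all 21 markers found the groups overlapped, at 80.1 to 130 CPM in metformin PM, 35.1 to 49.8 CPM in metformin PBS, 32.6 to 82.5 CPM in vehicle PM and 38.3 to 67.4 CPM in vehicle PBS libraries. Their part in these values was not tested.

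Most of these matrix genes had unstable calls. None of Bgn, Col4a1, Sparcl1 and Timp3 was called by limma-voom. Bgn, Col4a1 and Timp3 were not called with the replicate block, and Col4a1, Sparcl1 and Timp3 were not called after thinning to equal totals. Without a library, Bgn stayed called for vehicle PBS 3 or 4, metformin PBS 3, vehicle PM 3 or metformin PM 3, and Sparcl1 for vehicle PBS 1, 3 or 4, metformin PBS 3 or metformin PM 3. Col4a1 stayed called without vehicle PBS 3 or 4, vehicle PM 3 or metformin PM 1, and Timp3 without vehicle PBS 3 or 4 or vehicle PM 3. Ltbp4 lost its call without metformin PBS 4 alone, at 1.61. The list's median ran from 0.88 without vehicle PM 1 to 1.71 without vehicle PM 3, and its called members from 0 to 6.

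For several cytokines that PM raised in both arms no interaction was called, and their errors were wide. Il6 had 45.8, 51.8 and 47.5 CPM in metformin PM libraries and 28.2, 13.5 and 12.3 CPM in metformin PBS libraries. In vehicle animals, Il6 had 60.2, 44 and 64.7 CPM in PM libraries and 15.8, 10.2, 27.1 and 8.4 CPM in PBS libraries. PM raised it in both arms, by 1.43 with metformin and 1.86 with vehicle, and the interaction was -0.43 ± 0.39 (edgeR adjusted p = 0.751), an SE nearly as large as the value. Tnf (0.02 ± 0.42), Il1b (0.09 ± 0.26) and Cxcl1 (0.16 ± 0.26) were likewise raised by PM in both arms with no called interaction (edgeR adjusted p = 0.991, 0.939 and 0.883). Of 22 tested cytokines and chemokines, Ccl9 and Ccl2 were called (9.09%, against 1.44% of all genes tested). In this list 18 were above 0, against 6109 of all 11906 genes tested, and the median was 0.27. Without vehicle PBS 3, 12 were above 0 and the median was 0.18.

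Lists tied to the known actions of metformin held no called interaction either. None of 36 complex I subunits, 39 subunits of complexes II to V, 12 mitochondrially encoded genes and 24 AMPK and mTOR pathway genes was called by the edgeR test, with medians of -0.018, 0.052, 0.117 and -0.004. Of all 11906 genes tested 1.44% were called, so at that share lists of this size would hold few calls or none. At an unadjusted p under 0.05 these lists held 1, 0, 3 and 3 genes, against 1380 of all 11906 genes tested. Of 25 genes of store-operated calcium entry, 0 were called and 3 had an unadjusted p under 0.05; Stim1, the calcium sensor of the endoplasmic reticulum, had 0.33 ± 0.09 (edgeR adjusted p = 0.0688) and Orai1, the channel, 0.10 ± 0.12 (edgeR adjusted p = 0.835). Cholesterol synthesis genes had a median PM effect of 0.32 with metformin and 0.69 with vehicle. None of 24 had a called interaction with edgeR, 12 had an unadjusted p under 0.05, 20 values were below 0 and the median was -0.29. Without metformin PM 3, 4 were called, in a fit that called 142 of all 12046 genes tested.

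Where a gene overlaps another one in the table, its count is uncertain, since the library kit keeps no strand. This holds for 69 of the 171 genes, and among those named here for Bhlhe40, Col4a1, Crem, Ece1, Ell2, Entpd1, Fkbp5, Gna15, Gpr171, Hsd11b1, Icam1, Il1b, Jun, Klf9, Ndrg1, Orai1, Pola1, Prr33, Reps2, Sla, Slc30a1, Slc7a11, Sparcl1 and Timp3. Jun overlaps its antisense partner Junos, Gpr171 lies within Med12l, and Prr33 overlaps the abundant leukocyte gene Lsp1.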

How the data were processed

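Raw read counts per gene were deposited as whole numbers for 13 libraries. The submitters' processing notes name bcl2fastq 2.19, TopHat2, HTSeq, edgeR and mm10; no annotation release or strand setting is given in the sources used here. Gene positions (start, end and length, unit "other", per the file headers) served for overlaps only. Of the IDs, 42462 matched a symbol.

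Genes with low counts were removed (filterByExpr), libraries were scaled by the trimmed mean of M values, and edgeR 4.0.16's quasi-likelihood model was fitted in R 4.3.3 with a coefficient for each group, leaving 9 residual degrees of freedom. P values were adjusted by Benjamini-Hochberg over 11906 genes. An SE is the log2 value divided by the square root of F. The p values measure the spread between these libraries.

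The named genes were the most positive and most negative called values with at least 5 CPM in the highest group, the lowest adjusted p of each departing group, up to 3 called members of each of 40 lists, and a fixed panel; not all are printed. Outside this rule, 8 genes were chosen after their values were seen: Entpd1, Fos, Hsd11b1, Junb, Klf4, Klf9, Tbc1d2 and Tsc22d3. The members and lists were chosen with earlier results of these data known. Alternatives were DESeq2 1.42.0, limma-voom (limma 3.58.1), other scalings and filters, a replicate block and leaving out each library; thinning all libraries to the same total was chosen after seeing the data. The steps were run on simulated counts with a single spread for all genes and changes in metformin PM only. That run cannot speak for gene-specific spread or for the other departing groups. Figures used Python 3.11.15 and Matplotlib 3.10.9.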

Additional observations from a re-analysis of the deposited data

Results flagged for a closer look

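The effect of PM differed between animals on metformin and animals on vehicle in 171 genes by the edgeR interaction test, and 58 of them are printed here. The positive log2 interactions were Bgn 2.28, P2ry10 2.16, Ndrg1 2.07, Col4a1 1.88, Ltbp4 1.83, Timp3 1.83, Gpr171 1.80, Sparcl1 1.76, Nr4a3 1.75, Crem 1.73, Ccl9 1.64, Ccl2 1.60, Ece1 1.60, Hsd11b1 1.36, Slc30a1 1.26, Depdc1a 1.15, Cd80 1.07, Ect2 1.04, Lepr 1.04, Ets2 0.88, Fkbp5 0.86, Per1 0.85, Dlgap5 0.82, Mt2 0.82, Reps2 0.79, Ell2 0.73, Plaur 0.73, Ifi204 0.71, Pola1 0.69, Tsc22d3 0.61, Klf9 0.60, Entpd1 0.51 and Sla 0.50. The negative log2 interactions were Prr33 -1.99, Slc7a11 -1.56, Gdf15 -1.13, Ptpro -1.10, Apoe -1.06, Jun -1.06, Tfrc -1.05, Zfp217 -0.97, Bhlhe41 -0.92, Rhob -0.83, Arrb1 -0.82, Fos -0.81, Btg2 -0.71, Tbc1d2 -0.68, Gadd45g -0.67, Junb -0.61, Gna15 -0.55, Pnrc1 -0.54, Tfeb -0.51, Sgk1 -0.50, Fgr -0.45, Klf4 -0.44, Bhlhe40 -0.42, Tnfaip2 -0.37 and Icam1 -0.32.

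Within the vehicle PBS group, the only group with 4 libraries, 3 of 68 genes checked had a library far from the others: Ect2 at 35.7 CPM in vehicle PBS 3, Entpd1 at 117 CPM in vehicle PBS 1 and Stim1 at 107 CPM in vehicle PBS 1. Chance flags about 1 in 20 groups.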

How the results depend on the processing

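The interaction count was 211 with DESeq2, 163 with limma-voom, 165 to 173 with other scalings or the stricter filter and 160 after thinning to equal totals. With no filter it was 507 (277 positive, 230 negative), 501 of them among the 11906 genes tested, and 170 of the 171 genes remained; metformin with PBS then had 813 genes. The departing groups then had 213 (metformin PM), 81 (metformin PBS), 45 (vehicle PM), 25 (vehicle PBS) and 143 mixed genes; edgeR's prior degrees of freedom were infinite there, so no gene's own spread was used. DESeq2 put 18 genes down to metformin PBS. A share of 0.6 gave 21 vehicle PM and 10 mixed genes; a share of 0.9 gave 53, 5, 3, 2 and 108 genes in the order just used.

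Leaving out 1 library gave 113 to 262 interaction genes (69 to 170 positive, 40 to 118 negative), 884 to 1666 for PM with metformin, 359 to 645 for PM with vehicle, 419 to 954 for metformin with PM and 121 to 503 for metformin with PBS. The departing groups had 66 to 132 (metformin PM), 4 to 66 (metformin PBS; 66 without vehicle PBS 4), 4 to 14 (vehicle PM), 2 to 15 (vehicle PBS) and 33 to 74 mixed genes. Of the 58 printed called genes, 43 were called in all 13 such fits, 50 under all other settings, and none changed sign in any fit.

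The libraries were not paired by the numbers in their titles, whose meaning could not be worked out. The correlations of 16 same-numbered pairs ran from -0.102 to 0.116, and 6 of 13 libraries correlated best with their own number. These values do not settle whether same-numbered libraries belong together. With the replicate block 194 genes were called, 148 of them among the 171, with 535 for metformin with PM, and 14 genes put down to vehicle PM and 24 to metformin PBS. With 3 or 4 libraries per group, small departures were not detectable; low genes such as Prr33, Bgn and Timp3 rest on few counts.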
